A study of Mus musculus with 12 samples.

Results

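The 10 genes described here encode transcription factors of the somites and of the paraxial mesoderm that gives rise to them: *Meox1*, *Meox2*, *Tcf15*, *Foxc1*, *Foxc2*, *Uncx*, *Pax1*, *Pax9*, *Tbx18* and *Myf5*. They were taken by name from the 38911 genes with a summed transcript count, and 9 of them were among the 16966 genes that passed a filter on low counts. *Pax1* did not pass it. The libraries came from gastruloids, aggregates of mouse embryonic stem (ES) cells that form the germ layers and elongate along a head-to-tail axis. Before plating, cells of the E14TG2a line were kept in 2iLIF medium, which holds the Wnt agonist CHIR99021, an ERK antagonist and leukaemia inhibitory factor. Each aggregate was started from 200 of these cells and exposed to CHIR99021 again on day 2. Aggregates were collected on day 4 in a pool per treatment and experiment. From day 3 to day 4 the medium held 21.25 mM glucose (1× glucose, the control), no glucose (0×), 63.75 mM glucose (3×), or 5 mM 2-deoxy-D-glucose (2-DG, a glucose analog that blocks glycolysis and also enters mannose metabolism) on top of 1× glucose. Each of these 4 groups has 3 libraries of polyA RNA, 1 each from ES cells at passages 13, 15 and 16, so that a group is made of 1 cell line at different passages.

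Somites are blocks of mesoderm that bud in pairs from the front end of the presomitic mesoderm, where *Tbx6* and *Msgn1* hold cells in the presomitic state and an oscillating network of Notch and Hes genes sets the rhythm of budding. *Meox1*, *Meox2* and *Tcf15* are switched on as cells enter the somite, the forkhead genes *Foxc1* and *Foxc2* already act in the paraxial mesoderm ahead of it, and *Tbx18* and *Uncx* then divide each somite into a front and a back compartment. *Pax1* and *Pax9* mark the sclerotome, the ventral part that builds vertebrae and ribs, and *Myf5* is the earliest of the myogenic factors that commit cells of the dermomyotome to skeletal muscle.

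Of the genes that passed the test of 2-DG against 1× glucose only when libraries were paired by passage, 3 are shown by sequence. The sequence just ahead of each gene was taken from the RefSeq promoter table of GRCm38.p6. It is written 5′ to 3′ on the strand of the gene. Capitals mark every match, on either strand, to the motifs searched: the T-box site AGGTGTGA and its core GGTGTG (which overlap), the E-box CANNTG, the forkhead site GTAAACA, the homeodomain site TAATTA and the Tcf/Lef core CTTTGA.
Meox2, chr12:37108290-37108539, plus strand: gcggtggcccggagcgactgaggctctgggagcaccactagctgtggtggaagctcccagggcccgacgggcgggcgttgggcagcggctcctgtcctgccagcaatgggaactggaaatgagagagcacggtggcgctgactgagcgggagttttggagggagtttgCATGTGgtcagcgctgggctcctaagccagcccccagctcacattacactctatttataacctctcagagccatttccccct
Uncx, chr5:139543648-139543864, plus strand: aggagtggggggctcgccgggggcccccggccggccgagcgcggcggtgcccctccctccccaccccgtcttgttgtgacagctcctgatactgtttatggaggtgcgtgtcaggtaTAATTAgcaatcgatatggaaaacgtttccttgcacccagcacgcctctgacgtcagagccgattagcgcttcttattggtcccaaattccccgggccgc
Tbx18, chr9:87731261-87731510, minus strand: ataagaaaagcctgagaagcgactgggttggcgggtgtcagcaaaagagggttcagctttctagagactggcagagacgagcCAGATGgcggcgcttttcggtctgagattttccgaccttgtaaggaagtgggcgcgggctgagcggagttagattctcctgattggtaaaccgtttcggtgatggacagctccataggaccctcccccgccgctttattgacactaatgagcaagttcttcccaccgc
The *Uncx* stretch has 217 bases, since the last 33 bases of its window of 250 lie inside a longer *Uncx* transcript. It held 1 homeodomain site, 100 bases before the gene, and 4.5% of 32536 promoter windows cut to the same length held one. *Meox2* and *Tbx18* each held 1 E-box, 82 and 168 bases before the start, as did 66.2% of all windows of 250 bases. None of the 3 stretches held the letters of the T-box site, T-box core, forkhead site or Tcf/Lef core, which 1.1%, 16.3%, 3.2% and 13.9% of windows of 250 bases held. The window of *Myf5* lies inside a longer transcript of that gene and is not shown.

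Before the treatments are compared, the differences between passages have to be described. All 12 libraries enter the main comparisons. The depth was 31902471 to 45956080 counts per library. Deviations from the group means correlated across genes at 0.0963 to 0.623 between libraries of the same passage and at −0.44 to 0.191 between libraries of different passages. Centring each group on its own mean pushes the values between passages down, and the ranges overlap. With the treatment held fixed, 46.2% of all tested genes differed between passages (adjusted p under 0.05, edgeR's quasi-likelihood test). Passage 15 had 3531 genes higher and 3553 lower than passage 13, and passage 16 had 3468 higher and 3349 lower than passage 13. Passage 16 had 372 higher and 341 lower than passage 15. The passage was therefore taken to pair the libraries, and each comparison is given without and with the passage as a block. The labels do not say that the passages were run at different dates, and passage, experiment and any other property shared by its 4 libraries cannot be told apart. The labels also list the samples as ES cells, the cells that were plated. On day 4 the summed level of 7 pluripotency genes was 35.1 to 77.1 CPM per library (CPM is a count normalised to library depth with TMM factors), and that of the 10 somite regulators was 180 to 1057 CPM. In pooled aggregates, fewer cells of a type and less RNA per cell cannot be told apart.

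The somite regulators spanned levels from 326 CPM (*Foxc2* in 0× glucose at passage 15) to no count. Per kilobase of merged exons, which makes levels comparable between genes, the medians over the 12 libraries were 76.5 CPM per kb for *Foxc2*, 64.8 for *Meox1*, 39.9 for *Foxc1* and 36.1 for *Tcf15*. *Foxc2* exceeded *Meox1* in 6 of 12 libraries and *Foxc1* exceeded *Tcf15* in 7 of 12, so neither pair had a fixed order, whereas *Meox1* exceeded *Foxc1* in 12 of 12. The other genes were far lower: *Tcf15* exceeded *Tbx18* in 12 of 12 libraries, and the medians were 1.08 CPM per kb for *Tbx18*, 0.565 for *Meox2*, 0.452 for *Myf5* and 0.373 for *Uncx*. Among these 4 the order changed from library to library, with *Tbx18* above *Meox2* in 7 of 12, *Meox2* above *Myf5* in 8 of 12 and *Myf5* above *Uncx* in 6 of 12. The paralogs *Meox1* and *Meox2*, which can replace each other in parts of somite development in the embryo, thus stood far apart in level, and *Foxc1* and *Foxc2*, a similar pair, did not.

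The sclerotome genes were at or near the limit of detection. *Pax1* had 0 counts in 10 of 12 libraries, 3 counts in the 0× library and 2 counts in the 3× library of passage 16, and a count of 0 allows up to 3 counts. *Pax9* had 0 to 16 counts per library, with 4, 8 and 11 in 1× glucose, 9, 0 and 5 in 2-DG, 12, 16 and 5 in 0× and 10, 7 and 6 in 3× glucose (passages 13, 15 and 16, the order used throughout). All *Pax9* counts sat on 1 of its 6 RefSeq transcripts, a predicted one. The gene overlaps the non-coding genes *Gm15524* and *Gm46352* and the coding gene *Slc25a21*, and the strand setting of the counting is not stated, so that its few counts may belong to a neighbour.

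The somite regulators were separated by passage. With the treatment held fixed, 7 of the 9 tested genes differed between passages, against 46.2% of all genes, and each of the 7 had its lowest level in passage 13 and its highest in passage 15. *Meox1*, a homeodomain factor needed for the somite to be patterned, had 36.3, 262 and 154 CPM in 1× glucose, 46.9, 313 and 163 in 0× and 40.4, 219 and 135 in 3× glucose. *Tcf15* (paraxis), the bHLH factor by which somites become epithelial, had 11.1, 78.7 and 36.4 CPM in 1×, 13.1, 105 and 42.0 in 0× and 12.5, 65.4 and 34.3 in 3× glucose. For both genes every glucose library of passage 13 lay below every library of the other passages. In log2 terms, passage 15 exceeded passage 13 by 2.17 (SE 0.29) for *Meox1* (adjusted p = 0.000562 for any difference between passages, edgeR's quasi-likelihood test) and by 2.27 for *Tcf15* (adjusted p = 0.000215).

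**Figure D1:**
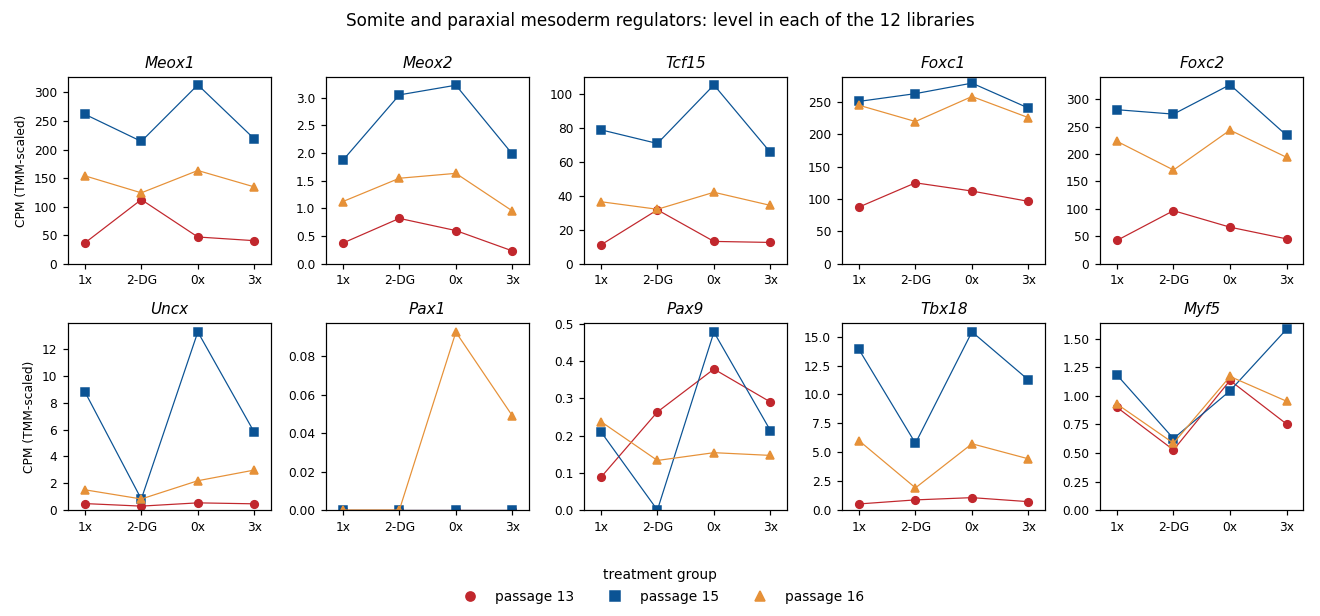
Each panel shows 1 gene, with the level in CPM on the vertical axis and the 4 treatment groups on the horizontal axis. Each point is 1 library, coloured by ES cell passage, and lines join libraries of the same passage. The passage 13 points are lowest in all groups for *Meox1*, *Meox2*, *Tcf15*, *Foxc1*, *Foxc2*, *Uncx* and *Tbx18*. For *Meox1* and *Tcf15* the 2-DG point of passage 13 comes close to that of passage 16. The 3 *Myf5* points of 2-DG lie below all others.

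The forkhead genes followed the same order. *Foxc2* had 42.6, 281 and 223 CPM in 1× glucose, 96.8, 273 and 171 in 2-DG, 66.7, 326 and 244 in 0× and 45.3, 234 and 194 in 3× glucose. *Foxc1* was the least spread of the 7, with 87.6, 251 and 245 CPM in 1×, 125, 263 and 220 in 2-DG, 112, 279 and 258 in 0× and 96.4, 240 and 226 in 3× glucose. Every passage 13 library was below every other library for both genes. The difference of passage 15 from passage 13 was 2.18 for *Foxc2* and 1.30 for *Foxc1* (log2).

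The compartment genes showed the widest gap between passages. *Tbx18*, the T-box repressor that keeps the front part of the somite distinct, had 0.527, 13.9 and 6.01 CPM in 1× glucose, 1.07, 15.4 and 5.73 in 0× and 0.725, 11.2 and 4.43 in 3× glucose. *Uncx*, the homeodomain factor of the back part, had 0.483, 8.84 and 1.51 CPM in 1×, 0.536, 13.3 and 2.19 in 0× and 0.464, 5.79 and 2.98 in 3× glucose. Passage 15 exceeded passage 13 by 3.81 (log2, SE 0.27) for *Tbx18* and by 3.82 (SE 0.44) for *Uncx*, and passage 16 fell between them, below passage 15 by 1.37 for *Tbx18* (adjusted p = 0.0119) and by 1.71 for *Uncx* (adjusted p = 0.0325, edgeR's quasi-likelihood test). The *Uncx* call was lost when only its most abundant transcript was counted (adjusted p = 0.206). That transcript had 260, 287 and 180 counts in the 0×, 1× and 3× libraries of passage 15 and 0 in all libraries of passage 13, in all 2-DG libraries and in the 1× and 3× libraries of passage 16, where other *Uncx* transcripts held the counts. Sums over transcripts are used here for that reason.

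*Myf5* and *Pax9* did not pass the test between passages. *Myf5* had 0.900, 1.18 and 0.929 CPM in 1× glucose and the passages differed by at most 0.41 (log2, adjusted p = 0.202, edgeR's quasi-likelihood test).

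Treatment with 2-DG was compared with 1× glucose to ask what the analog does to the aggregates. Its actions on glycolysis and on mannose metabolism cannot be told apart in this comparison. Without the block, none of the 9 genes passed the test, against 17.6% of all genes. With the block, *Meox2* rose and *Uncx*, *Tbx18* and *Myf5* fell, 4 of 9 against 41.3% of all genes, so the share was close to that of any gene. The common dispersion of the counts was 0.0316 without the block and 0.0063 with it.

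Of the 9 genes, *Uncx* had the largest log2 fold change with the block. It had 0.293, 0.817 and 0.826 CPM in 2-DG against 0.483, 8.84 and 1.51 in 1× glucose. The counts were 10, 30 and 31 in 2-DG and 22, 336 and 70 in 1× glucose, so the widest gap was that of passage 15. There the most abundant *Uncx* transcript had 287 counts in 1× glucose and 0 in 2-DG, and another transcript had 49 and 30. The 2-DG library was lower in 3 of 3 passages, and the 2-DG levels of passages 15 and 16 lay inside the range of 1× glucose. The log2 fold change was −2.46 (95% interval −5.39 to 0.47, adjusted p = 0.237) without the block and −2.03 (−3.19 to −0.86, adjusted p = 0.0106) with it, both by edgeR's quasi-likelihood test. Over the 14 alternatives the adjusted p ranged from 0.0106 to 0.82, and the test was passed with the block by edgeR and by DESeq2 (adjusted p = 0.0325) only.

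*Tbx18* had 0.878, 5.78 and 1.92 CPM in 2-DG against 0.527, 13.9 and 6.01 in 1× glucose. It was lower in passages 15 and 16 and not in passage 13, and the groups overlapped. The log2 fold change was −1.24 (SE 1.22, adjusted p = 0.544) without the block and −1.03 (SE 0.29, adjusted p = 0.0146) with it by edgeR, and DESeq2 with the block also called it (adjusted p = 0.00181). The range over the 14 alternatives was 0.00181 to 0.951. With passage 13 left out, a choice made after seeing the data, the log2 fold changes were −1.37 for *Tbx18* (adjusted p = 0.209) and −2.64 for *Uncx* (adjusted p = 0.112), neither called by edgeR.

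*Meox2*, which acts with *Meox1* in the somite and later in limb muscle, had 0.82, 3.05 and 1.54 CPM in 2-DG against 0.373, 1.87 and 1.12 in 1× glucose, from 17 to 112 counts per library. It was higher with 2-DG in 3 of 3 passages while the groups overlapped. The log2 fold change was 0.70 (SE 0.80, adjusted p = 0.611) without the block and 0.72 (SE 0.19, adjusted p = 0.0105) with it, by edgeR. DESeq2 with the block did not call it (adjusted p = 0.061).

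*Myf5* had 0.527, 0.627 and 0.586 CPM in 2-DG, and its lowest level in the other 9 libraries was 0.754 CPM. The groups therefore did not overlap, but the share of all genes without overlap was not counted. The counts were also low, at 18 to 23 per library in 2-DG and 26 to 52 in the others. The log2 fold change was −0.78 both ways, with an SE of 0.27 and an adjusted p of 0.067 without the block and an SE of 0.23 and an adjusted p of 0.0185 with it (edgeR's quasi-likelihood test). DESeq2 with the block gave an adjusted p of 0.105, and the range over the 14 alternatives was 0.0185 to 0.493.

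The abundant somite genes did not pass the test in 2-DG in either fit. *Meox1* had 112, 214 and 124 CPM in 2-DG against 36.3, 262 and 154 in 1× glucose, with a log2 fold change of 0.00 (95% interval −1.75 to 1.74) without the block and 0.38 (−0.34 to 1.09) with it. *Tcf15* had 31.7, 70.7 and 32.0 CPM in 2-DG, and its log2 fold change was 0.09 without and 0.39 with the block. *Foxc1* and *Foxc2* changed by 0.14 (95% interval −0.06 to 0.33) and 0.25 (−0.24 to 0.73) with the block. For all 4 genes 2-DG was higher in passage 13 and lower in passage 16. *Pax9* had a log2 fold change of −0.44 with an interval from −2.20 to 1.33, at counts too low to show a difference, and *Pax1* had no count in either group.

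**Figure D2:**
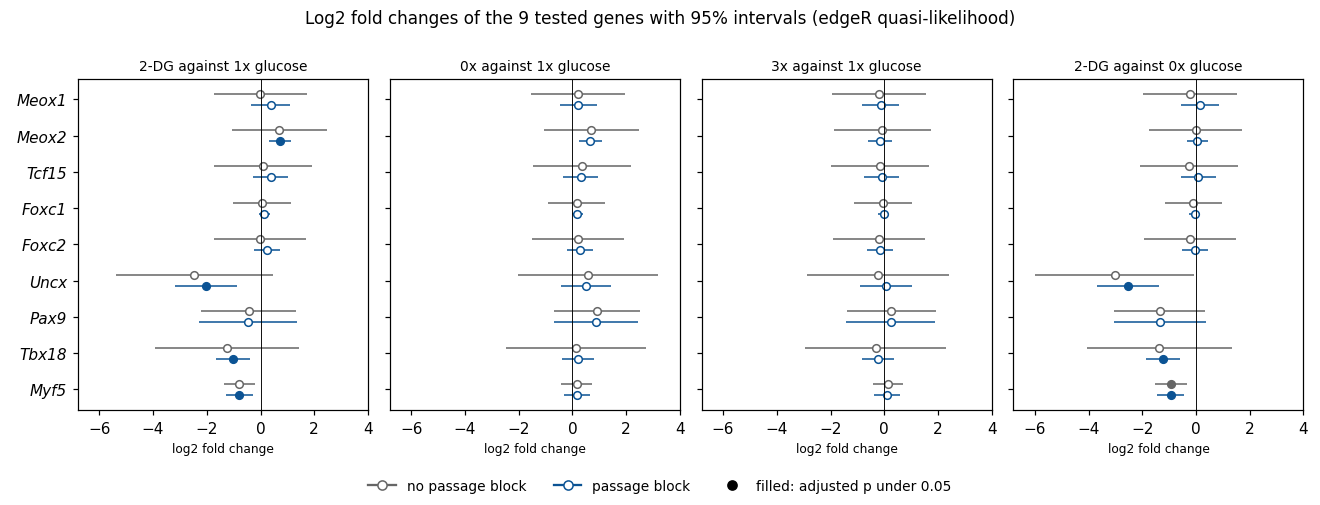
The log2 fold change of each of the 9 tested genes is plotted on the horizontal axis for 4 comparisons, with 95% intervals, without the passage block (grey) and with it (blue), and a filled point has an adjusted p under 0.05. The blue intervals are shorter, and in the comparisons of 2-DG the filled points lie left of 0 for *Uncx*, *Tbx18* and *Myf5*, and right of 0 for *Meox2* against 1× glucose.

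Removal of glucose left the somite regulators without a call. None of the 9 passed in 0× against 1× glucose without or with the block, against 0.0118% and 0.0177% of all genes, and by edgeR 306 genes and 1591 genes had an unadjusted p under 0.05. All 9 log2 fold changes were above 0, with a median of 0.22, where the median over all genes was 0.00. The largest was that of *Pax9* (0.91, 95% interval −0.68 to 2.50), followed by *Meox2*, with 0.6, 3.23 and 1.63 CPM in 0× glucose and a log2 fold change of 0.71 (SE 0.80) without and 0.67 (SE 0.19, adjusted p = 0.383, edgeR's quasi-likelihood test) with the block. *Meox1*, *Tcf15*, *Meox2*, *Foxc1*, *Foxc2* and *Uncx* were each higher in 0× than in 1× glucose in 3 of 3 passages. These genes varied together over the libraries, so that their signs are not separate observations.

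Raising glucose gave no call either. None of the 9 passed in 3× against 1× glucose, against 0% of all genes without the block and 0% with it, and 178 and 876 genes had an unadjusted p under 0.05 (edgeR). Log2 fold changes ran from −0.31 (*Tbx18*, 95% interval −2.94 to 2.31) to 0.27 (*Pax9*), with a median of −0.17. Intervals with the block were narrowest for *Foxc1* (−0.22 to 0.18) and for *Myf5* (−0.36 to 0.57), and widest for *Pax9* (−1.43 to 1.90). They hold for that fit only: for *Myf5* the most abundant transcript alone, without the block, gave −0.41, outside its interval.

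The comparison of 2-DG with 0× glucose sets the analog against absence of glucose. Without the block *Myf5* fell, 1 of 9 against 18.9% of all genes, with a log2 fold change of −0.94 (SE 0.27, adjusted p = 0.0332, edgeR's quasi-likelihood test) between 0.527, 0.627 and 0.586 CPM in 2-DG and 1.14, 1.05 and 1.17 CPM in 0× glucose. The groups did not overlap, and the share of all genes without overlap was not counted here either. The call was lost on leaving out any 1 of the 6 libraries (adjusted p 0.0669 to 0.0987), with passage 13 left out (adjusted p = 0.0789) and with the most abundant of its 2 transcripts alone (−0.24, adjusted p = 0.89), and 6 of 14 alternatives kept it. With the block, *Uncx* (−2.54, adjusted p = 0.0029), *Tbx18* (−1.24, adjusted p = 0.00585) and *Myf5* (−0.95, adjusted p = 0.00742) fell, 3 of 9 against 43.1% of all genes, and DESeq2 with the block called the same 3 genes. *Meox2* had a log2 fold change of 0.05 (95% interval −0.36 to 0.45) here with the block, beside 0.72 for 2-DG and 0.67 for 0× against the shared 1× glucose libraries.

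The 2-DG library was then compared with the 3 glucose libraries of its own passage, to see whether the response was the same in each passage. This test was added after the values were seen, and it rests on 1 2-DG library per passage. Its error comes from the 0×, 1× and 3× libraries of a passage, which are different treatments taken here as replicates. The spread among 2-DG libraries of a passage was not measured. Of all genes, 0.36% passed the test. *Meox1* did (adjusted p = 0.013, edgeR's quasi-likelihood test of the interaction). In passage 13 it stood at 112 CPM in 2-DG and at 36.3 to 46.9 CPM in the 3 glucose libraries, a log2 difference of 1.45 (SE 0.17). In passages 15 and 16 the 2-DG level was 214 and 124 CPM, below the 219 to 313 and 135 to 163 CPM of the glucose libraries, with log2 differences of −0.30 (SE 0.17) and −0.28 (SE 0.18). The call was lost with all 1× libraries left out (adjusted p = 0.319) and with the most abundant transcript of each gene alone (adjusted p = 0.052), and 13 of 15 alternatives kept it, in a range of 0.00122 to 0.319.

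*Tcf15* had nearly the same values, 1.38 (SE 0.21) in passage 13 and −0.23 in passages 15 and 16, and did not pass (adjusted p = 0.0602, range 0.00452 to 0.575, called in 5 of 15 alternatives, edgeR). *Foxc2* had 0.92, −0.04 and −0.37 (adjusted p = 0.245). Of the compartment genes, *Uncx* had −0.75 (SE 0.75), −3.50 (SE 0.53) and −1.42 (SE 0.52) and *Tbx18* 0.22 (SE 0.39), −1.23 (SE 0.27) and −1.49 (SE 0.30), and the difference between passages was not called for either (adjusted p = 0.41 and 0.36, edgeR). In passage 13 neither gene exceeded 1.07 CPM in any library. *Myf5* had −0.81, −1.01 and −0.78, and *Meox2* 1.04, 0.37 and 0.34, the same direction in 3 of 3 passages. None of these values was called in its passage (edgeR). For *Meox2* the 0× library was above the 2-DG library in passages 15 (3.23 against 3.05 CPM) and 16 (1.63 against 1.54 CPM). In passage 13 it was below (0.6 against 0.82 CPM).

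**Figure D3:**
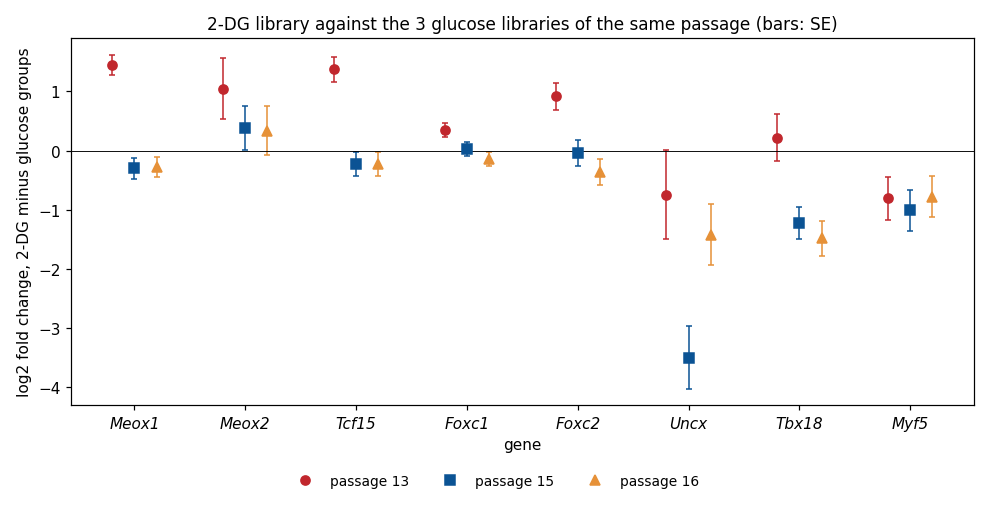
For 8 genes the log2 fold change of the 2-DG library over the 3 glucose libraries of the same passage is plotted with its SE, coloured by passage. *Pax9* is left out for its count of 0 in 2-DG at passage 15. The passage 13 point stands at 1.45 for *Meox1* and 1.38 for *Tcf15* while the other passages lie just below 0, and all 3 points of *Myf5* lie between −0.78 and −1.01.

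Genes that act before the somite forms were read from a list of 15 presomitic mesoderm and segmentation genes. Of these, 2 fell in 2-DG against 1× glucose and none rose without the block (median log2 −0.40, against 0.00 over all genes), where 17.6% of all genes were called. With the block 7 fell and 1 rose, where 41.3% of all genes were called, and with passage 13 left out 4 fell, where 20.1% were. The 2 called without the block were *Nrarp*, a Notch feedback inhibitor (−0.98, adjusted p = 0.000561), and *Hes7*, the clock repressor (−0.74, adjusted p = 0.00508, both by edgeR). *Msgn1*, not called there, was in 2-DG at 0.129, 0.281 and 0.525 of its 1× glucose level in passages 13, 15 and 16. *Tbx6*, also not called there, was at 0.478, 0.701 and 0.713. Over the list, 12 of 15 log2 fold changes against 1× glucose lay below 0 and 3 above. Against 0× glucose, *Nrarp* (−1.01), *Cited1* (−0.94) and *Hes7* (−0.79) fell. Between passages 13 of the 15 genes differed, against 46.2% of all genes, and *Hes7* and *Rspo3* did not pass. *Msgn1*, which helps progenitors to become presomitic mesoderm, was called between passages (adjusted p = 0.0296, edgeR), with a log2 difference from passage 13 of −0.16 (SE 0.27) in passage 15 and 0.75 (adjusted p = 0.0442) in passage 16. *Tbx6* was also called (adjusted p = 0.0108, edgeR), with 0.19 (SE 0.11) in passage 15 and 0.50 (adjusted p = 0.00482) in passage 16.

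The 2-DG response by passage was called for 5 of these 15 genes, *Msgn1* (adjusted p = 0.00733), *Hes7* (0.022), *Rspo3* (0.0262), *Ripply1* (0.0385) and *Tbx6* (0.0484), by edgeR. Over all tested genes 0.36% were called in this test, which has 1 2-DG library per passage. *Tbx6* was at 92.8 CPM in 2-DG and at 194 to 219 CPM in glucose in passage 13, against 152 and 192 to 220 CPM in passage 15. *Msgn1* was at 5.65 CPM in 2-DG and at 43.7 to 52.9 CPM in glucose in passage 13, against 10.98 and 32.4 to 42.0 CPM in passage 15. *Hes7* and *Rspo3* likewise had their largest log2 fall in passage 13, by 1.23 and 0.79. Other genes of the list went the opposite way in passage 13: of the 15, 9 lay below 0 there and 6 above, among them *Pcdh8* (1.93), *Ripply2* (1.59), *Mesp2* (1.33) and *Mesp1* (1.27). *Ripply1*, which with *Ripply2* ends *Tbx6* activity at the forming boundary, was not detected in the 3 glucose libraries of passage 13 and was at 0.293 CPM in 2-DG there, while it was lower in 2-DG in passages 15 and 16, with log2 differences of −2.79 and −2.30. The boundary gene *Mesp2* was at 21.9 CPM in 2-DG and 6.98 to 10.5 CPM in glucose in passage 13 (interaction adjusted p = 0.29, not called by edgeR).

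**Figure D4:**
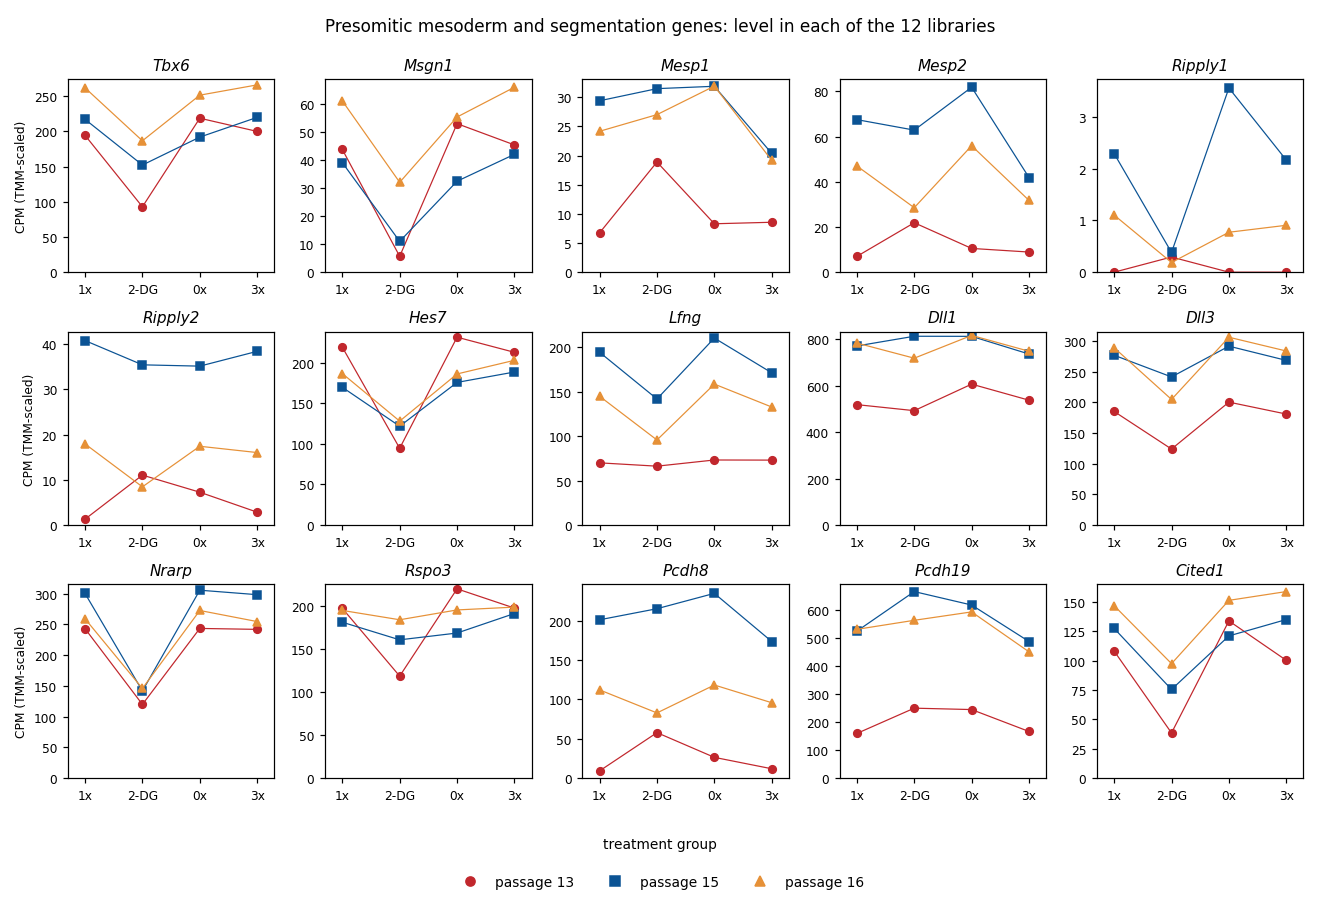
The 15 presomitic mesoderm and segmentation genes are plotted as CPM in each library by treatment group, coloured by ES cell passage, with lines joining libraries of the same passage. *Tbx6*, *Msgn1* and *Hes7* are lowest in the 2-DG library of passage 13, while *Mesp2* and *Ripply2* are lowest in the glucose libraries of that passage.

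Of 12 other somite and dermomyotome genes, 8 differed between passages, against 46.2% of all genes, and the 8 were lower in passage 13 than in passage 15. *Pax3*, a paired-box factor of the dermomyotome, had 6.98, 44.1 and 23.2 CPM in 1× glucose. Over all genes, 17.6% were called in 2-DG against 1× glucose and 18.9% against 0× glucose, without the block. In 2-DG against 1× glucose, *Prrx1* rose (0.68, adjusted p = 0.0117) and *Lbx1*, a gene of migrating limb muscle precursors (−1.77, adjusted p = 0.0422), and *Fst*, a secreted activin antagonist (−0.64, adjusted p = 0.0437), fell. Against 0× glucose *Prrx1* (0.50) rose and *Lbx1* (−1.98) fell. *Lbx1* was under 1 CPM in every library. *Dmrt2*, a partner of *Tcf15* in somite patterning, had 4.92, 9.75 and 5.22 CPM in 2-DG and 4.87, 35.7 and 10.1 CPM in 1× glucose and fell with the block (−0.95, adjusted p = 0.0213) and not without it (adjusted p = 0.328, edgeR's quasi-likelihood test).

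Of the sclerotome and cartilage list, 8 of 9 genes were tested. The share of all genes called without the block was 17.6% in 2-DG against 1× glucose and 18.9% against 0× glucose. *Sox9*, which drives cartilage but is also active in neural and neural crest cells, rose in 2-DG from 11.4 ± 4.53 to 37.7 ± 5.25 CPM (SD, n = 3 each, log2 fold change 1.72, adjusted p = 0.00741 by edgeR). The other 7 were not called against 1× glucose without the block. Against 0× glucose *Sox9* (1.53) and *Scx* (0.75) rose. *Pax1* had no count in 2-DG or 1× glucose, and *Nkx3-2*, another sclerotome gene, was not tested. In skeletal muscle, *Myog* and *Myf6* had no count in any library and *Myod1* and *Chrna1* did not pass the filter. *Des* fell in 2-DG (−1.06 against 1× and −1.09 against 0× glucose), as did *Mef2c* against 0× glucose (−1.03), the 2 called of 3 tested. *Des* and *Mef2c* are also expressed in cells other than muscle.

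Marker lists of other cell types were compared between treatments and passages. The calls named here are to be read beside the 17.6% of all genes called in 2-DG against 1× glucose and the 18.9% called against 0× glucose. The summed level of 7 neural tube genes was 147 to 310 CPM in 2-DG and 86.2 to 198 CPM in 1× glucose, and 171 to 310 CPM in passage 13 against 77.5 to 164 CPM in the other passages. In 2-DG against 1× glucose, *Irx3* (1.90), *Sox1* (1.84) and *Pax6* (1.29) rose and *Nkx6-1* (−1.43) fell, and the same 4 genes were called against 0× glucose in the same directions. The endothelial list was at 2.04 to 2.20 CPM in 2-DG and 3.67 to 11.2 CPM in 1× glucose, and *Etv2* (−1.52) fell, with *Kdr* (−3.44) and *Etv2* (−1.48) called against 0× glucose. Of the pluripotency list, *Tfcp2l1* (1.05) rose and *Dppa5a* (−1.01) fell against 1× glucose, and *Nanog* (1.61), *Tfcp2l1* (1.16) and *Pou5f1* (0.84) rose against 0× glucose. *Wt1* (1.57) of the intermediate mesoderm list rose and *Trh* (−1.26) of the endoderm list fell against 1× glucose. No lateral plate or neural crest gene was called without the block. With the block, against 1× glucose, where 41.3% of all genes were called, 4 neural tube genes rose and 1 fell, and 4 endothelial genes fell. Of the pluripotency list 4 rose and 1 fell, and of the endoderm list 2 rose and 4 fell. Of the intermediate mesoderm list 1 rose and 1 fell, 2 neural crest genes fell and no lateral plate gene was called. Against 0× glucose with the block, 2 neural crest and 2 lateral plate genes fell, where 43.1% of all genes were called. Within the whole set of lists, no gene was called in 0× or 3× against 1× glucose. The part of these other cell types in the levels of the somite regulators was not tested.

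The genes whose pattern over the 12 libraries was closest to each regulator were found by the root mean square difference of log2 levels, each centred on its own mean. *Meox1* and *Tcf15* were nearest to each other (0.15), and both had *Pax3* and the FGF receptor gene *Fgfr2* as the next. *Foxc2* was close to *Rasgrp3* (0.14) and *Prkch* (0.18), and *Foxc1* to *Mn1* (0.11), *Hipk2* (0.11) and *Tcf7l1* (0.12). *Meox2* was closest to *Sox6* (0.29), *Enpp2* (0.32) and *Adra2a* (0.33). *Uncx* was closest to *Foxd1* (0.36), *Vtn* (0.58) and *Dmrt2* (0.69), and *Tbx18* to *Myocd* (0.33), *Fli1* (0.40) and *Gm2102* (0.40). *Myf5* was closest to *Msrb3* (0.17), *2610307P16Rik* (0.17) and *Rasl11a* (0.18), and *Pax9*, at its few counts, to *A430108G06Rik* (0.50), *Gm17769* (0.51) and *Gm26457* (0.52). Among the regulators themselves, *Uncx* and *Tbx18* differed by 0.72 and *Foxc1* and *Foxc2* by 0.42. The 12 libraries share 3 passages, and these distances carry the passage levels as well as the treatments.

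In the files' build (mm10), the genes lie at chr11:101877510-101894354 (*Meox1*), chr12:37108540-37179534 (*Meox2*), chr2:152143056-152149097 (*Tcf15*), chr13:31806646-31810635 (*Foxc1*), chr8:121116171-121118895 (*Foxc2*), chr5:139543865-139548179 (*Uncx*), chr2:147361930-147375049 (*Pax1*), chr12:56691693-56712824 (*Pax9*), chr9:87702800-87731260 (*Tbx18*) and chr10:107482908-107486927 (*Myf5*), as the RefSeq table of GRCm38.p6 gives them. *Meox2* and *Pax9* share chromosome 12 and *Tcf15* and *Pax1* chromosome 2, far apart from each other. Apart from *Pax9* and from *Pax1*, which overlaps the non-coding gene *AI646519*, none of the 10 overlaps another gene of that table.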

How the data were processed

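PolyA RNA of 12 pools of gastruloids was sequenced with a directional library kit. The authors trimmed the reads with Trim Galore, aligned them to mm10 with HISAT2, removed duplicates with Picard and deposited the estimated count of each of 120312 RefSeq transcripts per library, as StringTie apportioned the reads. The deposited values were whole numbers and were used without rounding. The versions, annotation and strand setting are not given in the sources used here. The authors also deposited 3 tables of their own fold changes and p-values, which were not used.

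Transcripts were matched by accession to the RefSeq table of GRCm38.p6 (100% of counts) and summed per gene symbol. Genes were kept by filterByExpr (minimum count 10) and scaled with TMM factors. All 12 libraries were fitted in R 4.3.3 with edgeR 4.0.16 (glmQLFit, glmQLFTest, two-sided, Benjamini-Hochberg adjustment over 16966 genes, threshold 0.05), with 4 groups and no block. Standard errors were taken from the F statistic. Ranges of adjusted p cover the alternatives: median-of-ratios factors, no filter, the passage as a block, DESeq2 1.42.0 without and with the block, the groups compared alone, the most abundant transcript alone, each library left out in turn, and passage 13 left out. DESeq2 with the block, passage 13 left out and the interaction of passage with 2-DG were added after seeing the data.

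Libraries were grouped by their titles, which also give the passage. The deviations from group means, correlated at 0.0963 to 0.623 within a passage, served as the check of the pairing. An exact permutation test of 3 libraries against 3 cannot give a two-sided p below 0.1. P-values measure the spread between pools from 1 cell line. The 95% intervals of fold changes carry the spread between libraries, and floors of 3 counts cover counting error only. Levels per kb used merged exons of GENCODE M21. Promoter windows were found for 7 of the 10 genes. All 10 regulators are named in each comparison, and of the other lists each called gene, to at most 5 per direction and list, with the 3 nearest genes of each tested regulator; 1 gene among these is not reported here. The members and lists were chosen with earlier results of these data known.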

Additional observations from a re-analysis of the deposited data

Results flagged for a closer look

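The difference of 2-DG from the 3 glucose groups was itself tested for a difference between passages, by the interaction term of edgeR's quasi-likelihood fit, and 1 somite regulator and 5 presomitic genes passed at an adjusted p under 0.05. The lists held 9 and 15 tested genes, and 0.36% of all tested genes passed. The test was chosen after seeing the data and has 1 2-DG library in each passage. Its error therefore comes from the 0×, 1× and 3× libraries alone, which are different treatments taken as replicates. For *Meox1* the adjusted p was 0.013, with log2 differences of 1.45, −0.30 and −0.28 in passages 13, 15 and 16. *Msgn1* (0.00733) differed by −3.06, −1.78 and −0.92, *Hes7* (0.022) by −1.23, −0.55 and −0.58 and *Rspo3* (0.0262) by −0.79, −0.17 and −0.09. *Tbx6* (0.0484) differed by −1.14, −0.46 and −0.48. *Ripply1* (0.0385) had no count in the glucose libraries of passage 13 and 0.293 CPM in the single 2-DG library there, so its call compares 1 library with libraries at 0 and no fold is given there. It differed by −2.79 and −2.30 in passages 15 and 16. Why passage 13 differed was not tested.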

How the results depend on the processing

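The passage decided most calls. With the passage as a replicate block, 4 somite regulators were called in 2-DG against 1× glucose and 3 against 0× glucose, and with DESeq2 and the block 2 and 3. Against 0× glucose 0 were called with the most abundant transcript alone, with passage 13 left out, and in each fit that left out 1 library (lowest 0, highest 0). The interaction of passage with 2-DG called 2 without the filter, 0 with the most abundant transcript alone, and 3, 0 and 2 with all 0×, 1× or 3× libraries left out, and 1 to 2 on leaving out 1 library. The passage differences gave 6 or 7 calls in all 15 alternatives.

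Of 764 alternative values, 661 kept their direction and their side of the threshold, 11 lost a call, 16 gained one and 3 (*Pax9*, DESeq2) had no adjusted p. Another 73 changed sign, none of them called. With the replicate block these were, against 1× glucose, *Meox1* 0.38 and *Foxc2* 0.25 in 2-DG and *Uncx* 0.073 in 3×, and against 0× glucose *Meox1* 0.15, *Meox2* 0.046 and *Tcf15* 0.078 in 2-DG. DESeq2 with the block gave 0.43, 0.28, 0.10, 0.21, 0.063 and 0.17 for the same 6. The most abundant transcript alone gave *Tcf15* −0.27 in 2-DG and *Myf5* −0.57 in 0× and −0.41 in 3× against 1× glucose. With passage 13 left out, *Tcf15* was −0.16 and *Foxc1* −0.039 in 2-DG against 1×, and without the 3× libraries the passage 15 minus 13 difference of the *Myf5* response was 0.13. Causes were not tested.

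Leaving out 1 library gave log2 ranges across 0. In 2-DG against 1× these were −0.47 to 0.65 (*Meox1*), −0.40 to 0.91 (*Tcf15*), −0.29 to 0.31 (*Foxc1*), −0.48 to 0.43 (*Foxc2*) and −1.36 to 0.14 (*Pax9*). In 2-DG against 0× they were −0.66 to 0.52 (*Meox1*), −0.61 to 0.70 (*Meox2*), −0.74 to 0.70 (*Tcf15*), −0.40 to 0.16 (*Foxc1*) and −0.66 to 0.22 (*Foxc2*). In 0× against 1× they were −0.52 to 0.87 (*Meox1*), −0.61 to 1.16 (*Tcf15*), −0.20 to 0.46 (*Foxc1*), −0.25 to 0.67 (*Foxc2*), −1.39 to 2.41 (*Uncx*) and −0.99 to 1.17 (*Tbx18*). In 3× against 1× they were −0.78 to 0.46 (*Meox1*), −0.88 to 0.48 (*Meox2*), −0.84 to 0.65 (*Tcf15*), −0.40 to 0.26 (*Foxc1*), −0.67 to 0.24 (*Foxc2*), −1.04 to 1.61 (*Uncx*), −0.063 to 0.54 (*Pax9*), −1.38 to 0.73 (*Tbx18*) and −0.23 to 0.33 (*Myf5*). The passage 15 minus 13 difference of *Pax9* ranged from −0.73 to 0.22 and that of the *Myf5* response from −0.35 to 0.0086.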
